A study of Mus musculus with 96 samples.

Results

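The 8 genes described here encode the machinery through which cells sense the cytokines interleukin 1 and interleukin 6: the receptors Il1r1, Il1r2, Il1rap, Il6ra and Il6st, the antagonist Il1rn, and the ligands Il1a and Il1b. Their open chromatin was followed in liver nuclei of fasted and fed mice. The genes were chosen as a set with the fasted-against-fed values of these same tables known. Those contrasts are therefore given as a description, with no p-value, and their counts support no statement about the genes. Every ATAC-seq peak listed under one of the 8 gene names and within 100000 bp of its transcription start site (TSS) was taken. In hepatocytes 40 of 46832 peaks over 7 genes were found and in macrophages 28 of 30170 peaks over 7 genes, 68 of 77002 in all. No peak under these names lay farther away than that limit. The most distant members inside it were Il1r1 -68812 in hepatocyte nuclei and Il6st -68915 in macrophage nuclei, where a peak is named by its gene and the distance in bp of its centre from the TSS, negative upstream. Il1r1 and Il1rn have several annotated starts, and their peaks are named from different ones.

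In HEP-INTACT mice the tagged nuclei are those of hepatocytes and in MAC-INTACT mice those of macrophages. The nuclei were captured on beads from the liver and transposed for ATAC-seq, which reads out how accessible each stretch of chromatin is. All mice were female. For each mouse line, 4 mice per group were fasted for 3, 8, 16 or 24 h from zeitgeber time (ZT) 12, the onset of the active phase, or had food ad libitum until the same hour, which makes 16 groups. The 4 time points fell at ZT15, ZT20, ZT4 and ZT12. Every group, the fed ones included, carried the tag. Strain, age and the driver of the tag are not given in the sources used here. The mouse is the replicate, and the macrophage libraries of a mouse, run as technical duplicates, had been joined into 1 value per mouse. Values are reads per 200-bp peak scaled by 1 factor per library and are called normalised reads. A peak is called opened where fasted mice had more reads than fed mice at an adjusted p under 0.05, and closed where they had fewer.

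Interleukin 1 alpha and beta both bind the receptor IL1R1, which signals once the co-receptor IL1RAP joins it. IL1R2 binds the same ligands without signalling and acts as a decoy, and the protein of Il1rn, the interleukin 1 receptor antagonist, occupies IL1R1 without recruiting the co-receptor. Interleukin 6 binds IL6RA, and the pair engages gp130, the product of Il6st and the shared signalling chain of a family of cytokines. Hepatocytes answer both cytokines with the acute phase response, while Kupffer cells, the resident macrophages of the liver, are a source of the ligands.

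Promoter sequence was available for all 8 genes, as 11 windows of 250 bases before an annotated start (RefSeq, GRCm38.p6). The windows of Il1r1, Il6ra, Il6st and Il1b are shown because promoter peaks of these genes lie over them and the results below return to those peaks. They are written 5′ to 3′ on the strand of the gene, with motif matches in capitals.

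Il1r1, chr1:40224830-40225079, plus strand: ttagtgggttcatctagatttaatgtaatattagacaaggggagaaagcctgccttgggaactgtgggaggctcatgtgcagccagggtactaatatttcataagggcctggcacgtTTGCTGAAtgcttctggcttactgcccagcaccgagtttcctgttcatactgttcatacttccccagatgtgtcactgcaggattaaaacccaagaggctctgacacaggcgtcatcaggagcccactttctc

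Il6ra, chr3:89913197-89913446, minus strand: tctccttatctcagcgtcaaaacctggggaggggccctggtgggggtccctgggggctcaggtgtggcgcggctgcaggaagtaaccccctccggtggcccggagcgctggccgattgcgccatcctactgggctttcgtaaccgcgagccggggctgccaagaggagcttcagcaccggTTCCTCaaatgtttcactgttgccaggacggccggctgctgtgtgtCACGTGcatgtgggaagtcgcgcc

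Il6st, chr13:112463820-112464069, plus strand: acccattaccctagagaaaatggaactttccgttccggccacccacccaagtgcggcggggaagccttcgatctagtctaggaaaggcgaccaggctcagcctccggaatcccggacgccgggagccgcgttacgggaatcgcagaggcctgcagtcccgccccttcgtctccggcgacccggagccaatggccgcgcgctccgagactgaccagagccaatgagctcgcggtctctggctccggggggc

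Il1b, chr2:129371140-129371389, minus strand: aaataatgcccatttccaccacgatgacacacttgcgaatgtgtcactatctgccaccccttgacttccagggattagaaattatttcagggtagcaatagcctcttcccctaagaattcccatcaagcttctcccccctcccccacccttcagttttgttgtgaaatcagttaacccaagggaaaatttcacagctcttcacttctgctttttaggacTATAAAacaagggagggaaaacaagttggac

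The Il1r1 window lies inside the RefSeq gene model, upstream of the start from which the hepatocyte peak Il1r1 -91 is named, and that peak covered 191 of its bases. Its 1 match, in capitals, is to the C/EBP element (TTGCNNAA), which 9.57% of 32817 promoter windows held. The peak Il6ra -36, present in both tables, covered 136 bases of the Il6ra window. That window had an E-box (CACGTG, in 6.02% of windows) and the PU.1 element (GAGGAA, in 23.3% of windows), the latter on the opposite strand as TTCCTC. The macrophage peak Il1b -37 covered 137 bases of the Il1b window, whose match is a TATA box (TATAAA, in 12.4% of windows). The window of Il1b also overlaps the antisense gene model Il1bos, and ATAC reads carry no strand. In the Il6st window, of which the peak Il6st -14 covered 114 bases, none of the 9 motifs searched on both strands was found. The other 5 motifs were the glucocorticoid receptor element (its 13-letter palindrome, in 0.387% of windows), the STAT element (TTCNNNGAA, 7.01%), the AP-1 element (TGANTCA, 6.75%), the NF-kB element (1.21%) and the FOXO element (TGTTTAC, 3.16%). A match of letters is a description of the window only. GC content was 48.4% for Il1r1 and 44.4% for Il1b against 65.2% for Il6ra and 66% for Il6st.

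Reads in peaks ranged from 2458156 to 6098645 per hepatocyte library and from 1729720 to 4637873 per macrophage library. The 16 h fasted mice 3 and 4 stood apart among hepatocyte libraries, with correlations to the mean of their group mates of 0.905 and 0.925. So did the 16 h fed mouse 3, at 0.926. The 16 h fasted mouse 4 was lowest among macrophage libraries, at 0.955. In the hepatocyte table all 14 hepatocyte marker genes had peaks, 1 of 14 Kupffer cell markers did (Csf1r), and no marker of the neutrophil or lymphocyte lists of 10 genes each did. Peaks of 10 of 12 sinusoidal endothelial markers were present there. Summed marker signal did not overlap between fasted and fed mice for hepatocyte markers at 24 h (11112 to 12454 against 8623 to 9341) and endothelial markers at 24 h (1379 to 1416 against 1219 to 1328). Nor did it for the 4 cholangiocyte peaks at 8 h (114 to 158 against 171 to 186) and Csf1r at 3 h (18.5 to 24.5 against 28.2 to 33.4). The 4 stellate cell peaks, all of Reln, 1 of 10 such markers, did not overlap at 16 h (36.1 to 153 against 156 to 277) and 24 h (81.8 to 131 against 143 to 160.1). In the macrophage table all 14 Kupffer cell markers had peaks, against 2 of 14 hepatocyte, 7 of 12 endothelial, 4 of 10 neutrophil and 3 of 10 lymphocyte markers. Fasted mice were all lower there for hepatocyte markers at 8 h (135 to 164 against 167 to 196) and 24 h (103 to 129 against 153 to 212). They were also all lower for neutrophil markers at 8 h (317 to 366 against 371 to 456) and lymphocyte markers at 8 h (82.4 to 139.8 against 147 to 175). The same held for the 2 cholangiocyte peaks, both of Epcam, at 16 h (64.6 to 80.4 against 80.6 to 88.1). The part of other cells in the results below was not tested. In bulk nuclei, fewer cells of a type and less signal per cell cannot be told apart.

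In hepatocyte nuclei 15 of the 40 peaks were opened and 1 closed at 3 h, where 11.3% and 10.3% of all tested peaks were opened and closed. At 8 h 15 were opened and 2 closed (20.3% and 13.7% of all peaks), at 16 h 6 and 2 (19% and 12.8%), and at 24 h 6 and 1 (25.3% and 11.4%). The median log2 fold change of the 40 peaks, fasted over fed, was 0.40, 0.37, 0.03 and 0.17 in time order, where that of all peaks was -0.01, 0.08, 0.10 and 0.16. All 4 fasted mice lay above all 4 fed mice in 19, 10, 4 and 13 of the 40 peaks, where this held for 13.1%, 18.2%, 14.2% and 25% of all peaks, and below them in 3, 2, 1 and 2 (12.7%, 12.8%, 8.14% and 11.5% of all peaks). Across the 4 times 25 peaks were opened at least at 1 time (44.5% of all peaks were), 9 of the 13 of Il1r1 and 9 of the 12 of Il6ra among them. Of the 40, 6 were closed at some time (25.6% of all peaks), 10 were never called (32.6%) and 4 were opened at 3 or more times (8.23%). All 40 passed the filter on low values. With the deposited scaling the median of all peaks was as far as 0.16 from 0, and each change is to be read relative to it.

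**Figure D1:**
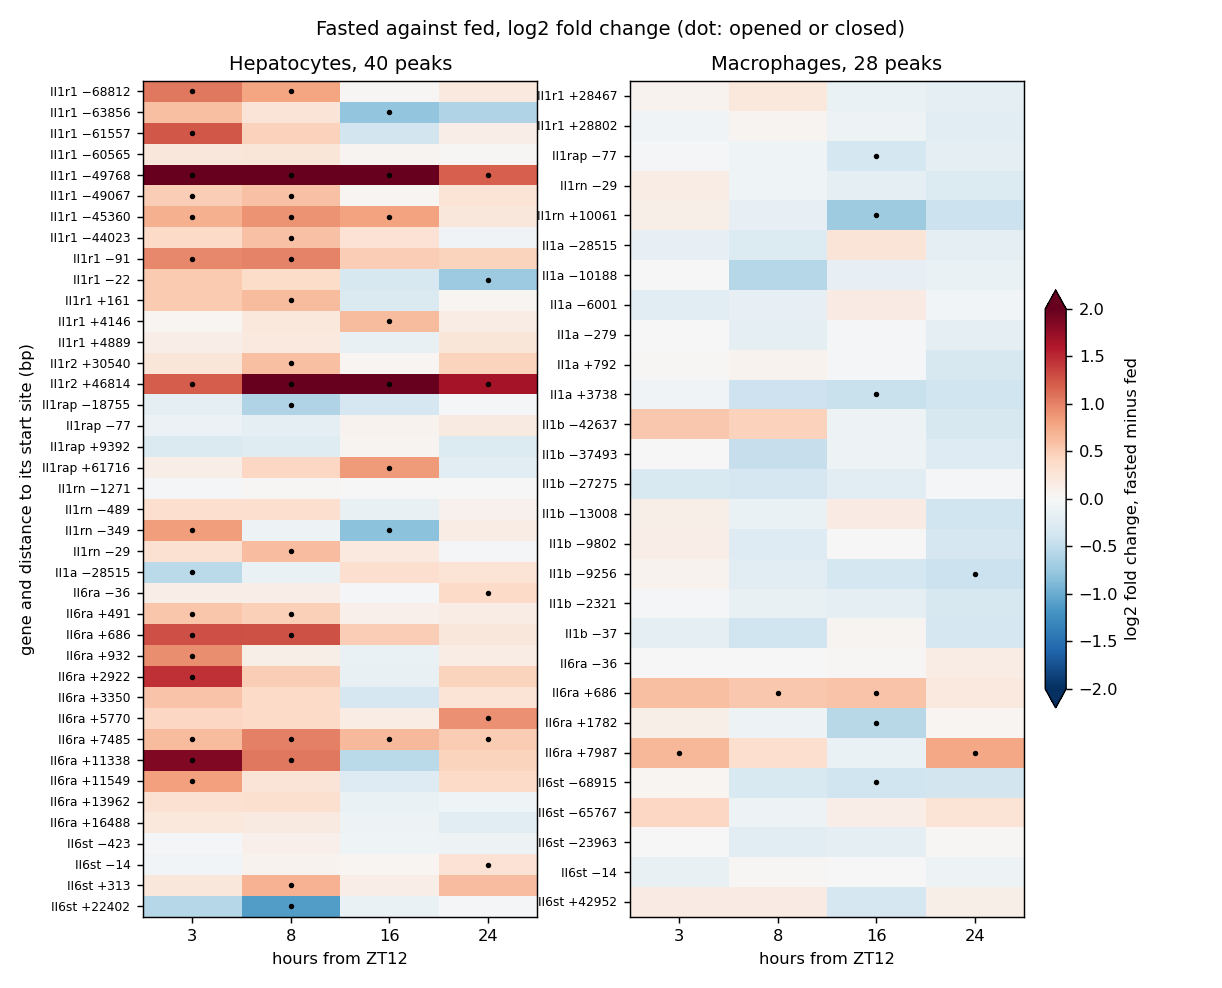
Heat map of the log2 fold change, fasted over fed, with the 40 hepatocyte peaks (left) and 28 macrophage peaks (right) in rows grouped by gene and hours from ZT12 in columns; red is higher in fasted mice, blue lower, colours saturate at the ends of the bar, and a dot marks an opened or closed call. Il1r1 -49768 (3.51) and Il1r2 +46814 (3.06) at 8 h are the most intense red cells, and the macrophage values stay between -0.71 and 0.77.

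The signalling receptor gene Il1r1 held the peak with the widest difference, Il1r1 -49768, in intergenic sequence at chr1:40175212-40175412 (mm10). At 3 h the fed mice had 17.3, 13.3, 17.1 and 13.1 normalised reads and the fasted mice 112, 42.5, 108 and 71.9. At 8 h the fed mice had 10.1, 10.2, 15.3 and 11.3 and the fasted mice 159, 151, 119 and 189. Every fasted mouse was above every fed mouse at both times. At 16 h the fed values were 15.4, 21.6, 21.6 and 9.56 and the fasted values 109, 70.6, 259 and 32.3. At 24 h the fed values were 31.2, 44.5, 42.2 and 66.5 and the fasted values 131, 118, 79.8 and 97.4. The groups did not overlap at these times either, although the 16 h fasted mice differed widely among themselves (SD 99.2 reads) and the fed mice were highest at 24 h. The log2 fold changes were 2.23, 3.51, 2.33 and 1.20, each with a standard error (SE) of 0.34. Without the 16 h fasted mouse 3 or 4, which stood apart, the 16 h value was 1.83 or 2.81.

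The neighbouring peak Il1r1 -49067 was among the most accessible of the gene and moved far less. At 8 h its fed mice had 111, 102, 127 and 98.2 reads and its fasted mice 132, 226, 136 and 184, with no overlap and a log2 fold change of 0.59 ± 0.13 (SE). It was opened at 3 h too (0.50 ± 0.13), and at 16 h its groups averaged 135 ± 4.12 and 141 ± 33 (SD, n = 4). Nearer to the gene, Il1r1 -45360, chosen after its values were seen, was opened at 3, 8 and 16 h by 0.72, 0.89 and 0.80. Also chosen after their values were seen, Il1r1 -68812 (1.05 ± 0.17) and Il1r1 -61557 (1.24 ± 0.21) were opened at 3 h. Il1r1 -61557 had -0.36 at 16 h and 0.13 at 24 h. At the promoter shown above, Il1r1 -91, likewise chosen afterwards, averaged 25.2 ± 5.15 in the fed group and 52.8 ± 14.9 in the fasted group at 8 h (log2 fold change 0.99 ± 0.22) and was opened by 0.97 at 3 h. At 16 and 24 h it was 0.50 and 0.44 and was not called.

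Il1r1 has a second annotated start within the gene, at which Il1r1 -22 lies. This peak went the other way at 24 h, when fed mice had 33, 30.2, 34 and 27.1 reads and fasted mice 17.2, 18, 14.9 and 22.1. It was closed there with no overlap (-0.73 ± 0.22). At 3 h its value was 0.53 and was not called. The peak Il1r1 -63856, chosen afterwards, was closed at 16 h (-0.79 ± 0.27). That call was lost without the fasted mouse 3 or 4 or the fed mouse 1 or 2 (-0.74 to -0.59). Whether the fasting effect differed between the starts or between times was not tested.

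Il1r2, the decoy receptor, is the neighbour of Il1r1 on chromosome 1, with 97250 bp between the RefSeq models. Its peak Il1r2 +46814 (chr1:40132807-40133007) lies 7677 bp past the end of Il1r2 and 89573 bp before Il1r1, so that its assignment is by distance only. At 8 h the fed mice had 8.26, 8.36, 13.2 and 7.74 reads and the fasted mice 92.5, 73.4, 63.8 and 161. At 3 h the fed mice had 21.2, 21.4, 15.8 and 18.1 and the fasted mice 61.1, 26.5, 87.3 and 33.2. Fasted mice were above all fed mice at both times, with mouse 2 at 3 h closest to them. At 16 h the fasted mice had 53.5, 53, 131 and 21.8 against 7.86 to 9.76 in fed mice, and at 24 h 89.5, 93.8, 68.8 and 63.9 against 14.3 to 30.6. The log2 fold changes of 1.22, 3.06, 2.37 and 1.67 (SE 0.33) were opened calls at all 4 times. The 3 h call was lost without the fasted mouse 3 (0.93), and the 16 h value was 1.95 or 2.78 without the fasted mouse 3 or 4. Its centre is 42405 bp from that of Il1r1 -49768, and over the 32 mice the log2 values of these peaks had a correlation of 0.934, a description in which all values share libraries. The second Il1r2 peak, Il1r2 +30540 within the gene, was opened at 8 h only (0.61 ± 0.21), from 19.1 ± 4.72 to 30.3 ± 8.18, and edgeR (0.52) and DESeq2 (0.50) did not call it.

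**Figure D2:**
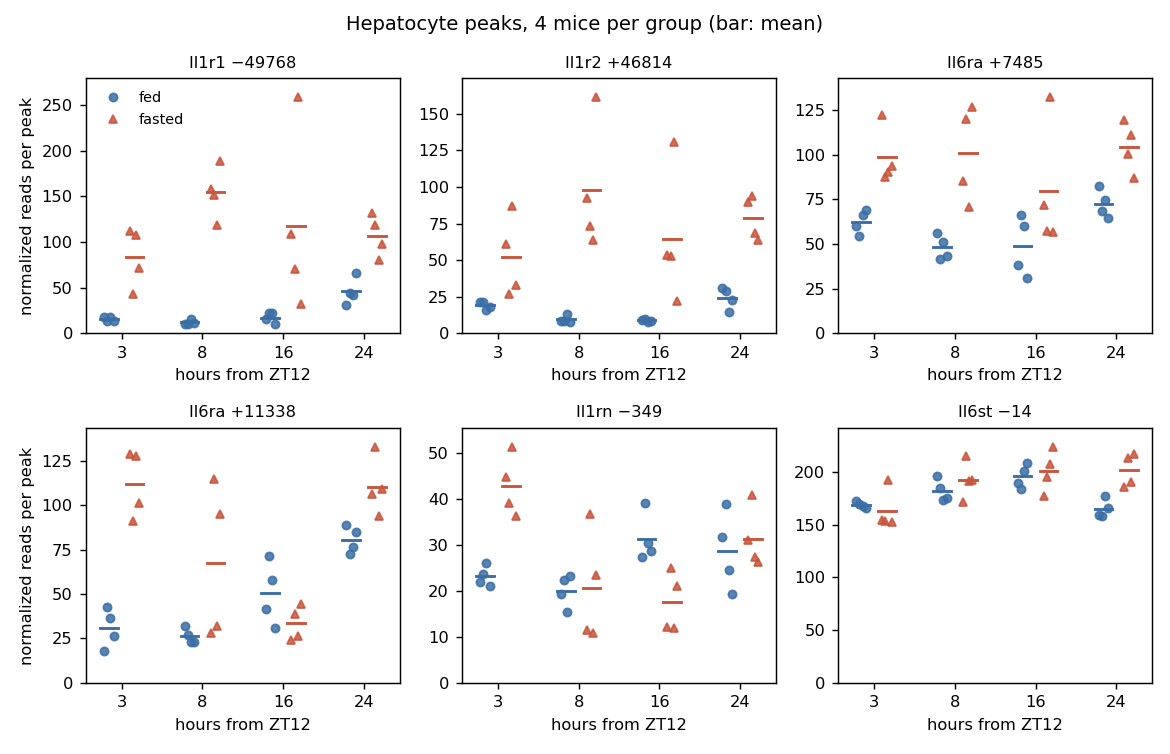
Normalised reads (y axis) against hours from ZT12 for 6 hepatocyte peaks, 1 panel each, with a point per mouse (blue fed, red fasted, 4 per group) and a bar at each mean. Il1r1 -49768 and Il1r2 +46814 separate fasted from fed mice at every time, whereas Il6ra +11338 separates them at 3 and 24 h and overlaps at 8 h.

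The co-receptor gene Il1rap showed little of this. Its promoter peak Il1rap -77 had fed means of 152, 163, 172 and 146 and fasted means of 140, 144, 180 and 166 and was not called at any time by limma. At 8 h it was called closed when the libraries were median-centred (-0.27), with edgeR (-0.23) and with DESeq2 (-0.24). The intronic Il1rap +61716 was opened at 16 h (0.85 ± 0.22), where fed mice had 6.29, 9.76, 11.8 and 9.56 reads and fasted mice 17.3, 17.7, 19.2 and 18.3, without overlap. Il1rap -18755, chosen after its values were seen, was closed at 8 h (-0.60 ± 0.19), a call lost without the fed mouse 4 (-0.52).

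For the antagonist gene Il1rn, Il1rn -349 was opened at 3 h and closed at 16 h. At 3 h the fed mice had 21.8, 23.6, 26.1 and 21 reads and the fasted mice 44.8, 39, 51.3 and 36.3 (0.83 ± 0.26). At 16 h the fed mice had 27.3, 39, 30.5 and 28.7 and the fasted mice 12.1, 24.9, 12 and 20.9 (-0.82 ± 0.26). The groups did not overlap at either time. The 3 h call was lost without the fasted mouse 3 (0.74), and the 16 h call without the fasted mouse 1 or 3 or the fed mouse 2 (-0.69, -0.69 and -0.72). The adjoining Il1rn -29 was opened at 8 h, from 31.7 ± 6.01 to 50.0 ± 12.5 (0.61 ± 0.19). That call was lost without the fasted mouse 2 (0.46) or the fed mouse 1 (0.51). The most accessible Il1rn peak, Il1rn -1271, which is named from the upstream start of the gene, differed by at most 0.03 at all 4 times. No call was made on it.

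The ligand genes had the fewest peaks in this table. Il1b had no peak, and Il1a had 1, the intergenic Il1a -28515. It was closed at 3 h (-0.54 ± 0.19), where the fed mice had 43.6, 36.1, 42.5 and 47.9 reads and the fasted mice 34.2, 27.5, 26.2 and 26.8. Fasted mice were all lower, but the call was lost on leaving out any 1 of 6 of the 8 mice, with values from -0.54 to -0.48.

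Il6ra, the gene of the interleukin 6 binding chain, had 11 hepatocyte peaks in its first intron and 1 at its promoter, and 3 h was the time with the most opened: 7 of 12 were opened at 3 h, 4 at 8 h, 1 at 16 h and 3 at 24 h. The widest difference was at Il6ra +11338 (chr3:89901758-89901958). At 3 h the fed mice had 18, 42.8, 36.3 and 26.1 reads and the fasted mice 129, 91, 128 and 101 (1.85 ± 0.29). At 8 h the fed mice had 32.1, 26.9, 23 and 23.2 and the fasted mice 27.7, 114, 32.2 and 95.2 (1.05 ± 0.29). The 3 h groups were far apart, while at 8 h mice 1 and 3 lay in or next to the fed range and mice 2 and 4 far above it. The 8 h call was lost without the fasted mouse 2 (0.72). At 16 h the values were 50.3 ± 17.8 in fed and 33.4 ± 9.7 in fasted mice (-0.54) and at 24 h 80.5 ± 7.54 and 110 ± 16.2 (0.44), neither of them called. Every fasted mouse at 24 h (94.1 to 133) was nevertheless above every fed mouse (72.4 to 88.7).

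Among Il6ra peaks chosen after their values were seen, Il6ra +7485 alone was opened at all 4 times, by 0.63, 1.01, 0.65 and 0.51 (SE 0.21). Its fed mice at 8 h had 56, 41.8, 50.9 and 43.4 reads and its fasted mice 85.4, 120.1, 70.7 and 127, and its groups overlapped at 16 h. The 3 h call was lost without the fasted mouse 1 or the fed mouse 1 or 2 (0.53 to 0.62). The 16 h call was lost without the fasted mouse 3 (0.38) or the fed mouse 1 (0.56) or 4 (0.46). The 24 h call was lost with median centring (0.43), edgeR (0.39) and DESeq2 (0.39) and on leaving out any 1 of 19 of the 32 mice (0.44 to 0.57). Il6ra +2922 was opened at 3 h, from 40.1 ± 8.51 to 116 ± 30.9 (1.47 ± 0.30). Close to the start, Il6ra +686 was opened at 3 and 8 h (1.28 and 1.27, SE 0.26) from fed means of 15.1 and 10.1. The promoter peak Il6ra -36 of the window shown above was opened at 24 h, where fed mice had 143, 145, 176 and 157 reads and fasted mice 204, 223, 187 and 196 (0.38 ± 0.09). All fasted mice were above the fed mice there. That value is to be set against the shift of 0.16 in the median of all peaks at 24 h. The share of reads within 1000 bp of a TSS was also higher at 24 h in every fasted hepatocyte library (46.8% to 49.4%) than in every fed one (43.4% to 45.4%), and its part in this opening and that of Il6st -14 was not tested.

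Il6st, the gene of gp130, had a steadier promoter. Il6st -14 had fed means of 169, 182, 196 and 165 and fasted means of 163, 192, 201 and 201. It was opened at 24 h (0.28 ± 0.08), and edgeR (0.15) and DESeq2 (0.14) on the recovered reads did not call it. The intronic Il6st +22402 was closed at 8 h (-1.12 ± 0.24), where fed mice had 57.8, 51.1, 70.4 and 57.1 reads and fasted mice 40.6, 9.89, 24.1 and 43.5. The groups did not overlap, and mouse 2 was lowest. At 3 h its fed mice averaged 69.4 ± 13.5 and its fasted mice 45.8 ± 5.30 (-0.57 ± 0.24), also without overlap. limma did not call this, while edgeR (-0.56), DESeq2 (-0.58) and the authors' deposited table (adjusted p of 0.0267) have it closed. Il6st +313, chosen afterwards, was opened at 8 h (0.70 ± 0.26), a call lost with median centring (0.62), edgeR (0.65) and DESeq2 (0.64).

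The 8 h fasted hepatocyte mice differed among themselves across these genes. Mice 2 and 4 held the highest pair of values in 26 of the 40 peaks (65%), where the same pair did so in 26.2% of all peaks. Over all groups of both tables, the next highest share of member peaks for 1 pair was 42.9%, in fed macrophage mice at 24 h, where that pair did so in 39.3% of all peaks. Reads in peaks were 4785412, 2458156, 5816809 and 5249125 for mice 1 to 4, so that the pair included the shallowest library of the table and one of the deeper ones. The part of depth in this order was not tested.

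**Figure D3:**
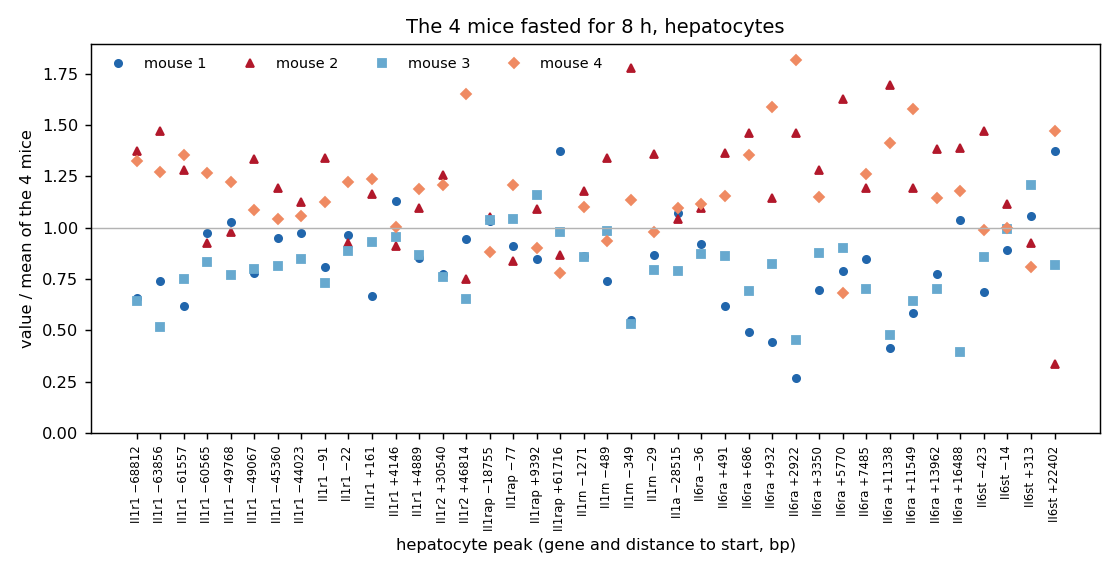
Value of each of the 4 hepatocyte mice fasted for 8 h divided by their mean (y axis), for the 40 peaks along the x axis, with a symbol per mouse. Mice 2 and 4 hold the highest pair of values in 26 of 40 peaks.

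Time of day was tested within the fed mice alone, with a moderated F test over the 4 times. The fed mice also served in the fasting contrasts by which the genes were chosen, so these values are not fully independent of that choice. Peaks named by their widest fold change between fasted and fed mice were picked on these same fed values. Such peaks are therefore described below without a p-value. Time changed 17 of the 40 hepatocyte peaks (42.5%), where it changed 21.1% of all peaks. They comprised 6 Il1r1, 9 Il6ra, 1 Il1r2 and 1 Il1rap peaks. Of the 17, 15 were highest at 24 h (ZT12) and 10 lowest at 8 h (ZT20), where 28.2% and 13.8% of all 9893 peaks with such a time effect were. This order was not tested. The widest range was at Il1rap +61716, with fed means of 34.0 ± 5.46, 22.3 ± 1.72, 9.35 ± 2.27 and 41.1 ± 7.55 (SD, n = 4), a 4.39-fold difference from the 16 h to the 24 h mice. At Il1r1 -49768 the 24 h fed mean of 46.1 was 3.93-fold the 8 h fed mean of 11.7, and at Il6ra +11338 the range was 3.06-fold. The second promoter peak Il1r1 -22 was highest at 16 h in fed mice (1.97-fold, limma adjusted p = 0.0035). Il1r2 +46814 changed 2.73-fold.

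**Figure D4:**
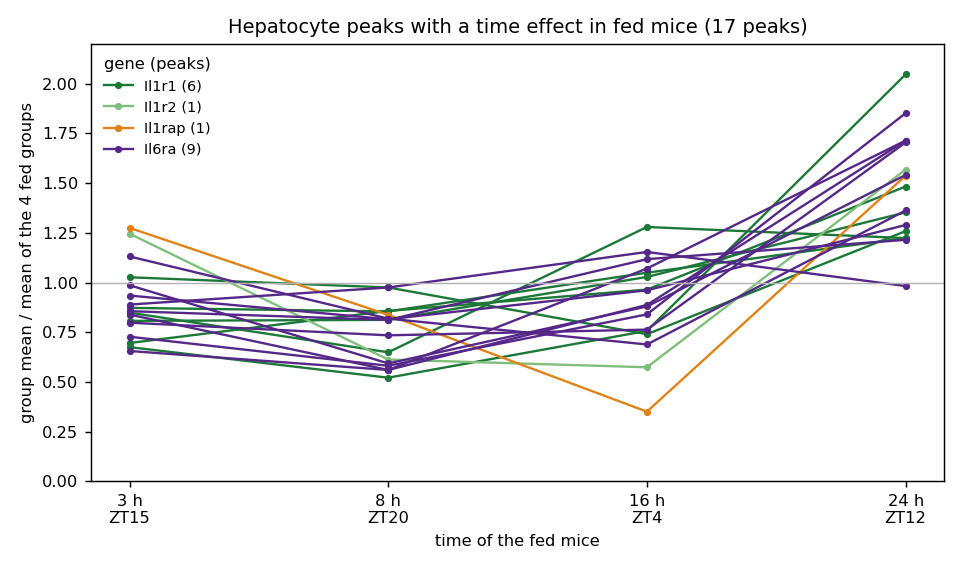
Mean of the 4 fed hepatocyte mice at each time divided by the mean of the 4 fed groups (y axis), with 1 line for each of the 17 peaks with a time effect in fed mice, coloured by gene. Of the 17 lines 15 are highest at 24 h (ZT12) and 10 lowest at 8 h (ZT20).

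In fasted mice, where hours of fasting and time of day cannot be told apart, 27 of the 40 hepatocyte peaks (67.5%) changed over time, against 52.1% of all peaks. Of the 27, 17 were lowest at 16 h, 11 highest at 24 h and 10 highest at 3 h, where 21.1%, 16.5% and 17.4% of all 24416 such peaks were. The fasted mice are those whose values chose the genes, so the counts are a description and single peaks are given without a p-value. Il6ra +11338 averaged 112 ± 19 at 3 h and 33.4 ± 9.7 at 16 h, and Il1r1 -49768 had fasted means of 83.7, 154, 118 and 107.

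In macrophage nuclei few peaks of these genes were called. Il1b had 8 peaks, Il1a 6, Il6st 5, Il6ra 4, Il1r1 and Il1rn 2 each, Il1rap 1 and Il1r2 none. At 3 h 1 of 28 was opened and 0 closed, where 1.68% and 0.139% of all peaks were. No 3 h closing had an unadjusted p under 0.05 in limma, and edgeR and DESeq2 called 0. At 8 h 1 was opened and 0 closed (1.63% and 4.96% of all peaks); 5 closings had an unadjusted p under 0.05, and edgeR and DESeq2 called 0. At 16 h 1 was opened and 5 closed (3.79% and 17.5%), and at 24 h 1 and 1 (3% and 8.28%). The median log2 fold change of the 28 peaks was 0.01, -0.14, -0.12 and -0.20, and that of all peaks -0.00, -0.07, -0.10 and -0.06. All 4 fasted mice lay above all fed mice in 3, 1, 1 and 1 of the 28 peaks (4.57%, 3.47%, 3.31% and 4.89% of all peaks) and below them in 0, 2, 3 and 3 (2.84%, 11%, 13.4% and 9.65%). Of the 28, 20 were never called (69.9% of all peaks), 2 were opened (7.23%) and 6 closed (23.1%) at some time, and 0 were opened at 3 or more times (0.693%).

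The directions in this table depended on the scaling. When each library was centred on its median, 2 member peaks were opened and 2 closed at 16 h, and 2 and 0 at 24 h. For all peaks the same step turned 1144 opened and 5271 closed at 16 h into 3779 and 2625, at 8 h 493 and 1497 into 1155 and 583, and at 24 h 905 and 2497 into 2269 and 1600. In hepatocyte nuclei it turned 9512 and 6425 at 8 h into 6905 and 7980, 8916 and 5980 at 16 h into 6598 and 6856, and 11867 and 5315 at 24 h into 7595 and 6157, while the members gave 13 and 3, 6 and 2, and 5 and 1. On the recovered reads edgeR and DESeq2 each gave 11 opened and 3 closed hepatocyte members at 8 h. For all hepatocyte peaks at 24 h edgeR gave 5035 and 7181, and DESeq2 4608 and 7157. Opened peaks were then 44.6% (edgeR) and 44.9% (DESeq2) of the calls at 16 h and 41.2% and 39.2% at 24 h, against 59.9% and 69.1% with the deposited scaling, and the members gave 6 and 2 at 16 h and 4 and 2 at 24 h with both tools.

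The ligand genes carried the most macrophage peaks. Il1b -37, the promoter peak of the window shown above, had fed means of 45.6, 53.4, 36.1 and 43.8 and fasted means of 40.4, 39.5, 38.6 and 33.8, with log2 fold changes of -0.17, -0.40, 0.06 and -0.34 (SE 0.17) and no call. The most accessible Il1b peak, Il1b -2321, had fed means of 144 to 170 and fasted means of 123 to 152 and was not called. Il1b -42637, the peak of the gene with the widest fold change, averaged 22.3 ± 3.03 in fed and 33.7 ± 8.85 in fasted mice at 3 h (0.53 ± 0.20), with no overlap and no call. Il1b -9256, chosen after its values were seen, was closed at 24 h, where fed mice had 71.5, 88.5, 64.9 and 69 reads and fasted mice 59, 55.8, 49.5 and 50.2 (-0.43 ± 0.15). The groups did not overlap. The call was lost with median centring (-0.33), edgeR (-0.39) and DESeq2 (-0.39) and on leaving out any 1 of 10 of the 32 mice (-0.48 to -0.34), and the authors' deposited table has an adjusted p of 0.057 for it. The promoter peak of the other ligand, Il1a -279, stayed between 25.0 and 34.0 in all group means. The most accessible Il1a peak, Il1a -28515, averaged 74.4 ± 8.24 in fed and 91.5 ± 25.5 in fasted mice at 16 h, without a call in limma. Median centring (0.40), edgeR (0.45) and DESeq2 (0.44) called it opened at 16 h, as did limma without the 16 h fasted mouse 4 (0.41). Il1a +3738, which also overlaps an exon of the gene model Gm14023 and was chosen after its values were seen, was closed at 16 h (-0.45 ± 0.16), where the groups overlapped.

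Il6ra held both peaks that limma called opened in macrophage nuclei with the deposited scaling and all mice. Il6ra +7987 (chr3:89905109-89905309, first intron) had 27.2, 33.5, 35.8 and 26.1 reads in fed and 36.1, 52, 45.2 and 68.1 in fasted mice at 3 h (0.66 ± 0.17). At 24 h the fed mice had 38.2, 30.3, 26.7 and 40.3 and the fasted mice 66.1, 45.1, 55.6 and 70.0 (0.77 ± 0.17). No fasted mouse fell into the fed range at either time. At 8 h the fasted mice (33.4 to 42.2) also lay above the fed mice (22.5 to 33.3), narrowly and without a call. The 3 h call was lost on leaving out any 1 of 5 of the 8 mice (0.50 to 0.70). At 16 h the values were 30.5 ± 5.63 and 27.6 ± 3.21 (-0.13). Its fed mice did not pass the test of time. Il6ra +686, the same 200 bp as in hepatocyte nuclei and chosen after its values were seen, was opened at 8 and 16 h (0.54 and 0.57, SE 0.18) and had 0.60 at 3 h without a call. The 8 h call was lost with an offset of 8 and on leaving out any 1 of 20 of the 32 mice (0.46 to 0.61), and the 16 h call without the fasted mouse 1 or the fed mouse 4 (0.47 to 0.49). The authors' deposited table has adjusted p-values of 0.0806 and 0.0594 for these times. The promoter Il6ra -36 had group means from 228 to 261 and was not called at any time by limma; at 24 h median centring (0.25) and edgeR (0.22) called it opened.

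**Figure D5:**
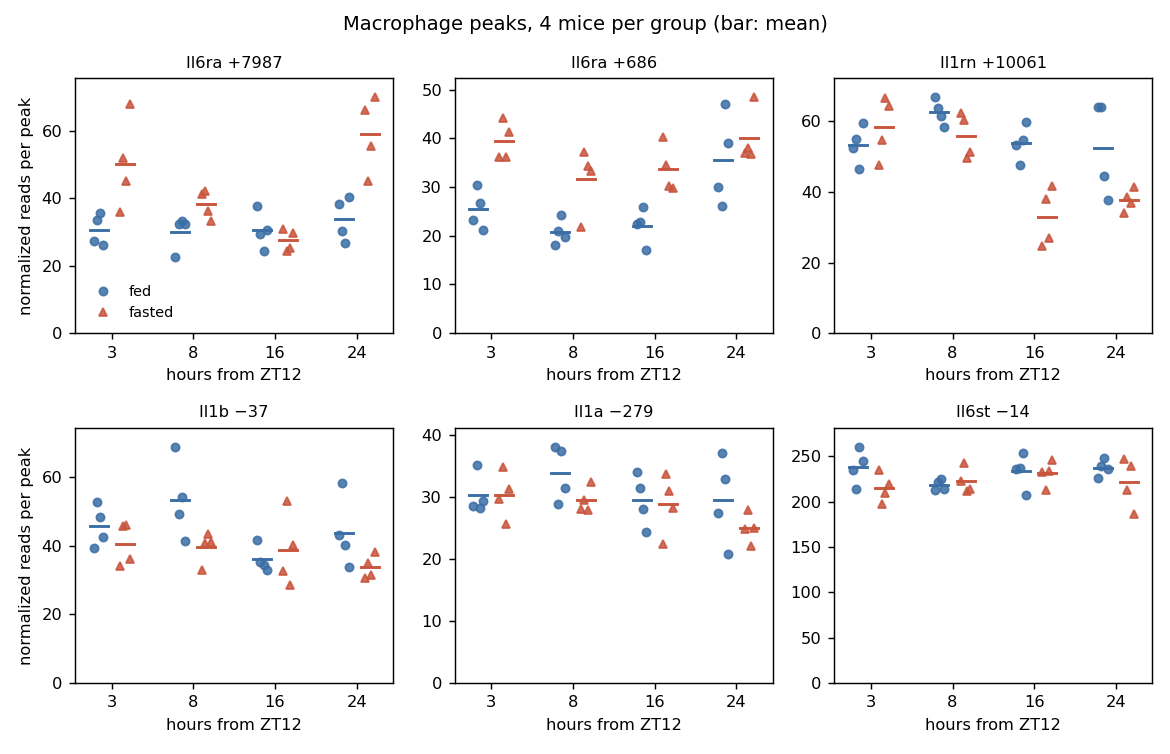
Normalised reads (y axis) against hours from ZT12 for 6 macrophage peaks, 1 panel each, with a point per mouse (blue fed, red fasted, 4 per group) and a bar at each mean. In fasted mice Il6ra +7987 lies above the fed mice at 3 and 24 h, and narrowly at 8 h, and Il1rn +10061 lies below them at 16 h.

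The 5 closings at 16 h were spread over 5 genes. Il1rn +10061 lies in intergenic sequence past the end of its gene. This peak had 53.4, 47.6, 54.8 and 59.9 reads in fed and 24.7, 38, 27 and 41.6 in fasted mice, all of the latter lower (-0.71 ± 0.15). At 24 h limma did not call Il1rn +10061 (-0.43), while edgeR (-0.44) and the authors' deposited call (-0.51) had it closed. Without the 16 h fasted mouse 4 its 16 h value was -0.83, and 3 member peaks in all were closed at 16 h. The co-receptor promoter Il1rap -77 had 157 ± 17.6 in fed and 123 ± 11.3 in fasted mice (-0.34 ± 0.11). Its call was lost with median centring (-0.20), edgeR (-0.23) and DESeq2 (-0.23), and without the fasted mouse 2 (-0.29) or the fed mouse 4 (-0.27). Il6ra +1782 (-0.55) and Il6st -68915 (-0.40), both chosen afterwards, and Il1a +3738 made up the rest. Median centring, edgeR and DESeq2 did not call Il6st -68915 or Il1a +3738 closed, and DESeq2 did not call Il6ra +1782. The 73 peaks of the Kupffer cell markers also summed lower at 16 h, to 3970 to 4767 in fasted against 4997 to 5492 in fed mice, and their part in these closings was not tested. Both Il1r1 peaks, Il1r1 +28467 and Il1r1 +28802, lie in an intron and are named from the second start. They had log2 fold changes between -0.23 and 0.22 and no call, and the promoter Il6st -14 had -0.15 to 0.03.

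Within fed macrophage mice, time changed 0 of the 28 peaks in limma (1.63% of all peaks), 6 had an unadjusted p under 0.05, and edgeR called 0 with 8 unadjusted. In fasted mice 6 of 28 (21.4%) passed, where 19.2% of all peaks did; edgeR called 7. They were Il6ra +7987, Il6ra +1782, Il1rn +10061, Il6st +42952, Il1a -28515 and Il1b -9256. Of these, 4 were highest at 3 h and 4 lowest at 16 h, where 53.2% and 63.2% of all 5780 such peaks were.

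The tables were scaled separately, so levels were not tested between cell types. Of the member peaks, 6 were at identical positions in both tables, 15% of the hepatocyte and 21.4% of the macrophage members, where 13984 peaks, 29.9% and 46.4%, were identical overall. These 6 were the promoters Il1rap -77, Il1rn -29, Il6ra -36 and Il6st -14, the intronic Il6ra +686 and the intergenic Il1a -28515. The Il1r1 peaks were all at different positions, hepatocyte peaks upstream of and around the starts and macrophage peaks within an intron. Il6ra +686 at 3, 8, 16 and 24 h had log2 fold changes of 1.28, 1.27, 0.49 and 0.23 in hepatocyte and 0.60, 0.54, 0.57 and 0.19 in macrophage nuclei. Whether these differ between the cell types was not tested.

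Genes around these receptors were taken from lists by role, chosen with earlier results of these data known and counted by peaks within 100000 bp of the TSS. Each peak named from them passed the threshold in limma, and their share is to be read against the shares of all peaks given above. Among 17 genes that carry the interleukin 1 signal, such as the kinases of the Irak family and the inhibitors of NF-kB, hepatocyte nuclei had 53 peaks, with 6, 17, 15 and 14 opened and 2, 2, 4 and 4 closed in time order. Their median log2 fold changes were 0.07, 0.20, 0.19 and 0.21, beside -0.01, 0.08, 0.10 and 0.16 for all peaks. Irak2 +16771 rose from 25.0 ± 4.48 to 69.8 ± 6.02 at 8 h (1.42 ± 0.25), and Nfkbiz +7227, of an inducible regulator of NF-kB, rose from 11.6 ± 1.36 to 41.6 ± 6.11 at 16 h (1.68 ± 0.22). Both genes also had closed peaks, such as Irak2 +4359 at 16 h (-1.01 ± 0.23) and Nfkbiz +8044 at 24 h (-1.51 ± 0.41). Traf6 +49580, of the ubiquitin ligase behind the receptor, fell from 18.6 ± 5.87 to 5.10 ± 2.01 at 16 h (-1.54 ± 0.27). Among 14 genes that carry the interleukin 6 signal (60 peaks), 7, 15, 16 and 17 were opened and 6, 8, 8 and 6 closed, with medians of -0.05, 0.09, 0.15 and 0.24. Median centring gave 10 opened and 10 closed for this list at 8 h, and 7 and 4 for the interleukin 1 signal carriers at 24 h. Socs1 +44255, of a feedback inhibitor of JAK kinases, fell from 58.8 ± 9.65 to 12.0 ± 3.43 at 8 h (-2.14 ± 0.23).

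The list of other cytokines and receptors that signal through gp130 had 21 hepatocyte peaks over 4 of 12 genes, with 1 opened at 16 h, 5 at 24 h and 3, 6, 7 and 4 closed in time order, with medians of -0.16, -0.16, -0.12 and 0.05. Median centring gave 0 opened and 9 closed at 16 h and 1 and 4 at 24 h. The 16 h opening was of the ligand gene Ctf1. The promoter peak Lifr -62, of the leukemia inhibitory factor receptor, fell from 87.1 ± 15.8 to 29.5 ± 12.2 at 8 h (-1.57 ± 0.24), and was also closed at 16 and 24 h (-1.59 and -1.65). Acute phase genes, the classical targets of both cytokines in hepatocytes, had 91 peaks over 21 of 22 genes, with 17, 22, 17 and 19 opened and 8, 10, 5 and 5 closed, with medians of 0.07, 0.09, 0.06 and 0.11. Median centring gave 18 opened and 17 closed at 8 h, 11 and 10 at 16 h and 8 and 5 at 24 h. Hp -729, of haptoglobin, rose from 12.7 ± 3.41 to 52.4 ± 14.7 at 3 h (1.87 ± 0.26), and Fgg -2830, of the fibrinogen gamma chain, fell from 45.6 ± 8.44 to 13.8 ± 5.56 at 16 h (-1.66 ± 0.26). Other interleukin 1 family genes (11 peaks, 4 of 11 genes) had 1 opened at 3 h, 4 closed at 8 h, and 2 opened and 2 closed at 24 h, of which median centring left 0 opened and 2 closed. Genes of interleukin 1 maturation had 2 peaks, over 2 of 8 genes, of which 2 were opened at 16 h and 1 at 24 h.

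In macrophage nuclei the same lists held 60 peaks of interleukin 1 signal carriers, with 2 opened at 3 h, 2 closed at 8 h, 3 opened and 6 closed at 16 h, and 4 and 2 at 24 h; the medians stayed between -0.04 and 0.02. Nfkbia +3747, of an inhibitor of NF-kB, rose from 108 ± 15.6 to 160.2 ± 13.1 at 3 h (0.56 ± 0.09). The 47 peaks of interleukin 6 signal carriers had 3 closed at 8 h, 1 opened and 13 closed at 16 h, and 6 and 4 at 24 h, with medians between -0.07 and -0.01. At 16 h median centring gave 11 opened and 7 closed for this list and 11 and 1 for the interleukin 1 signal carriers. For the latter it also turned the 8 h count into 4 opened and 1 closed, and gave 7 and 2 at 24 h. Tyk2 -5335, of a JAK kinase, fell from 35.9 ± 3.87 to 14.5 ± 3.12 at 8 h (-1.21 ± 0.19). Maturation genes (24 peaks, 7 of 8 genes) had 4 closed at 8 h, 4 at 16 h and 2 at 24 h, and 1 at each of these times with median centring. The peaks closed at 16 h without centring included Casp1 +132, of the protease that cleaves the interleukin 1 beta precursor (-0.51 ± 0.14 at 16 h). The gp130 list (10 peaks) had 1 opened and 4 closed at 16 h and 1 and 2 at 24 h, with medians of -0.34 and -0.29 beside -0.10 and -0.06 for all peaks. Its promoter peak Il6 -174, of the ligand itself, fell from 59.8 ± 15.2 to 38.5 ± 4.33 at 24 h (-0.58 ± 0.17). The other interleukin 1 family genes (9 peaks) had 1 opened at 3 h and 1, 2 and 1 closed at the later times, and the 2 peaks of acute phase genes had 1 opened at 16 h.

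The peaks whose log2 values over the 32 hepatocyte mice were most like those of Il1r1 -49768 were Kctd15 +22166 (r = 0.952), Redrum -172060 (0.945), Nrg4 -12828 (0.942), AU019990 +1178 (0.937) and Dnmbp -15208 (0.935). For the macrophage Il6ra +7987 they were Bcas1os2 -45170 (0.864), Tbl1xr1 -66554 (0.835), Ms4a6b -4822 (0.829), Igsf10 +31444 (0.815) and Nrg4 +23669 (0.812). These correlations share libraries and depth over the 32 mice of a table and are a description of likeness only.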

How the data were processed

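ATAC-seq libraries of 32 HEP-INTACT and 32 MAC-INTACT mice were analysed from 2 deposited peak tables. The authors deposited a signal per peak and mouse, named normalized counts. These values are whole reads divided by 1 factor per library, recovered from the steps of each column; how the factor was set is not given in the sources used here. The authors also deposited log2 fold changes and adjusted p-values of fasted over fed mice, which were used only to compare calls: they opened 16, 16, 6 and 6 and closed 1, 2, 2 and 1 of the 40 hepatocyte peaks, and 1, 0, 0 and 1 and 0, 0, 3 and 1 of the 28 macrophage peaks, in the authors' deposited table. Calls shared with those made here numbered 15, 17, 8 and 6 in hepatocyte and 1, 0, 3 and 1 in macrophage nuclei. Per the submitters' processing notes the tools were DESeq2, HOMER, SAMtools and BWA 0.7.5a-r405 and the build mm10, with no role stated.

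Here limma 3.58.1 in R 4.3.3 was fitted to log2 of the value plus 2, with 8 group means per table and a trend in the prior variance, on peaks with a mean of at least 10, and p-values were Benjamini-Hochberg adjusted over all tested peaks (46827 and 30170) at 0.05. Fold changes are on that scale, which understates changes of low peaks. Errors of fold changes are SE and of means SD over 4 mice. Reads in peaks of each library limit the precision. The members and lists were chosen with earlier results of these data known. Peaks named by rule were, per gene and table, the one nearest the TSS within 1000 bp, the one of highest mean and the one of widest fold change. Up to 2 peaks per list and direction were named by size. Alternatives were edgeR 4.0.16 and DESeq2 1.42.0 on the recovered reads, median centring, other offsets and filters, library sets as a block, a shorter distance, and each mouse left out. The fit was tested on simulated data. Sequences of distal peaks were not analysed here.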

Additional observations from a re-analysis of the deposited data

Results flagged for a closer look

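In 14 of 232 groups of 4 mice examined over the 29 described peaks (6.03%), 1 mouse lay far from the other 3, which chance gives in about 1 of 20 groups. In hepatocyte nuclei the Il1a -28515 peak had 34.2 reads in 1 mouse fasted for 3 h, against 26.2 to 27.5 in the others, and 28.7 in 1 mouse fasted for 8 h, against 38.1 to 40.0. The Il1r1 -49067 peak had 105 in 1 fed mouse at 3 h, against 114 in the others, and 189.9 in the 16 h fasted mouse 3, against 118 to 129.5. The Il1r2 +46814 peak had 13.2 in 1 fed mouse at 8 h, against 7.74 to 8.36, still far under the fasted mice. The Il6st -14 promoter had 192 in 1 mouse fasted for 3 h, against 152 to 154.

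In macrophage nuclei 5 of the 8 such values were of fed mice at 3 h. They were 35.3 at Il1a -279 (others 28.3 to 29.4), 182 at Il1b -2321 (128 to 134), 29.9 at Il1r1 +28467 (45.8 to 49.0), 29.2 at Il1r1 +28802 (39.4 to 40.8) and 18.3 at Il6st -65767 (26.9 to 28.1). Il1r1 +28467 also had 37.7 in 1 mouse fasted for 8 h (47.1 to 47.5) and 47.2 in 1 fasted for 16 h (37.1 to 38.7). Il6ra +7987 had 22.5 in 1 fed mouse at 8 h (32.4 to 33.3).

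At 2 hepatocyte peaks every fasted mouse lay above every fed mouse at 1 time and below at another. Il1r1 -63856 had a log2 fold change of 0.60 at 3 h and -0.60 at 24 h, neither called, and Il1rn -349 had 0.83 at 3 h and -0.82 at 16 h. The difference between the times was not tested.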

How the results depend on the processing

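Over all alternatives other than leaving out a mouse, 919 of 928 fold changes of the named peaks moved by less than the spread between mice. Of the rest, 9 moved further and 0 reversed. Over the mice left out in turn 3712 of 3712 stayed within that spread. A fold change at 1 time uses only the mice of that time, and the filters do not enter it. Most of the 3712 values, and those with another filter, therefore could not move, and these tallies do not measure stability. With edgeR and with DESeq2 the hepatocyte 8 h count of 15 opened and 2 closed became 11 and 3. Other moves of at most 1.5 times are not listed. Counts of called member peaks moved past 1.5 times, or to or from 0, as follows. An offset of 8 left 0 opened at 8 h in macrophage nuclei. Median centring gave 2 opened and 2 closed at 16 h, and 2 opened and 0 closed at 24 h there. edgeR gave 2 closed at 3 h and 2 at 24 h in hepatocyte nuclei. In macrophage nuclei edgeR gave 2 opened at 3 h, 2 opened and 2 closed at 16 h and 2 opened at 24 h, and DESeq2 gave 2 opened and 1 closed at 16 h and 0 closed at 24 h. DESeq2 gave 2 closed at 3 h and 2 at 24 h in hepatocyte nuclei. The cause was not tested. With library sets as a replicate block, 1 macrophage peak passed the test of time in fed mice; the block moved no other count past 1.5 times. The replicate numbers of mice name no pairs across groups.

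Leaving out 1 mouse at a time, hepatocyte openings ranged from 12 to 17 at 3 h and from 10 to 19 at 8 h. They ranged from 5 to 7 at 16 h and at 24 h. Hepatocyte closings ranged from 0 to 2 at 3 h and from 1 to 3 at 8 h (1 without the fed mouse 4). At 16 h they ranged from 0 to 2, where leaving out fasted mouse 3 gave 0. Macrophage openings ranged from 0 to 2 at 3 h, from 0 to 1 at 8 h (lost on leaving out any of 20 of the 32 mice) and from 0 to 2 at 16 h. Macrophage closings ranged from 0 to 1 at 8 h, from 3 to 7 at 16 h and from 0 to 4 at 24 h, and the test of time in fed mice from 0 to 2. Without the 16 h fasted macrophage mouse 4, 2 peaks were opened and 3 closed at 16 h. Precision is limited by 4 mice a group.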

Other observations

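The promoter window of Il1r2 (chr1:40085843-40086092) was overlapped in macrophage nuclei by a peak listed under the antisense gene model Gm16894. The peak lay at chr1:40085816-40086016, 65 bp before that model's start, and ended upstream of the Il1r2 start that follows the window. Il1r2 thus had no peak of its own in that table by name. The value of the Gm16894 peak averaged 39.6 normalised reads over the 32 mice, from 22.5 to 50.5. In the promoter windows that were not shown, Il1r2 had a STAT element (TTCAAGGAA) and 2 E-boxes, Il1a a TATA box, a PU.1 element and an AP-1 element (TGACTCA), and the upstream start of Il1rn an AP-1 element (TGAGTCA).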
